A study of Mus musculus with 8 samples.

Results

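The genes described here encode the subunits of the receptors through which retinal neurons sense glutamate, GABA and glycine, measured in mouse retina. The rule took protein-coding genes of the count table named with the prefixes Gria, Grid, Grik, Grin, Grm, Gabra, Gabrb, Gabrg, Gabrd, Gabre, Gabrp, Gabrq, Gabrr, Glra or Glrb, and left out 2 genes of these families. These were a metabotropic and a kainate receptor gene, so rankings, sums and shares of those families are without them. The rule found 48 of 54532 genes, of which 45 passed the filter on low counts and were tested.

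RNA sequencing of poly(A)-selected RNA was done on 8 retina libraries, 4 labelled sIVs (small intracellular vesicles, membrane vesicles from inside cells) and 4 labelled PBS, the controls, with replicates numbered 1, 3, 4 and 5 on both sides. The study is titled as one on uptake of such vesicles, delivery of drugs and neuroprotection in the retina, and the comparison asks which transcripts differ between vesicle and control retinas. Strain, genotype, age, sex, dose, route, time and any injury are not in the labels used here, nor is whether libraries came from separate animals, so the p-values reflect no more than the variation among these libraries, which may be technical. In bulk tissue, fewer cells of a type and less RNA per cell cannot be told apart.

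Glutamate is the transmitter of photoreceptors, bipolar cells and ganglion cells, and GABA and glycine are the transmitters of inhibitory amacrine cells. AMPA, kainate and NMDA receptors are cation channels opened by glutamate, built of 4 subunits each, and metabotropic glutamate receptors act through G proteins. GABA-A and glycine receptors are chloride channels of 5 subunits. Bipolar cell terminals also carry GABA receptors made of the subunits of the Gabrr genes, which close slowly and are best known from retina.

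Totals were 13803958 to 16622259 counts per library. All 9 listed rod photoreceptor markers were tested and summed to 31985 to 60482 CPM (counts scaled to library size) in PBS and 37449 to 61716 CPM in sIVs libraries, so the markers of the labelled tissue were present. The library sIVs replicate 4 stood apart. The 11 pigment epithelium markers (the epithelium lies behind the photoreceptors) summed to 489 CPM there and to 33.5 to 91.9 CPM in the other 7 libraries. All 11 were in the table, 8 were tested, and none was at 0 in all libraries. In sIVs replicate 4 long genes also stood lower: across 17004 tested genes the Spearman correlation of a gene's deviation from its own mean with its listed length was -0.45, against -0.18 in sIVs replicate 5 and 0.13 to 0.29 in the other 6 libraries. Each gene's mean includes sIVs replicate 4, so a trend there shifts the other libraries the opposite way by construction. Genes of a library share its depth and RNA quality and are not independent.

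Promoter sequences are shown for 4 members on which the results below turn. Glra3 and Glra4 were the members whose sIVs and PBS levels did not overlap, and Gabrr1 and Gabrr2 are chromosomal neighbours and the most abundant members. Each runs from 250 bases before to 50 bases after the RefSeq start (GRCm38.p6), 5′ to 3′ on the gene's strand. Capitals mark TAATCC or its complement GGATTA, the core bound by the retinal homeodomain factors CRX and OTX2.
Glra3, chr8:55940168-55940467, plus strand: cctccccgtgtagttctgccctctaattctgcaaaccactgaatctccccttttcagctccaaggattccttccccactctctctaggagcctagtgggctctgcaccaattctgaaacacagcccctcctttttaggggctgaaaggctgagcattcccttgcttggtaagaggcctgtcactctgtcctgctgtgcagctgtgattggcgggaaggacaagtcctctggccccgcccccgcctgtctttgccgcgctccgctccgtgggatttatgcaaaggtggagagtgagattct
Glra4, chrX:136779672-136779971, minus strand: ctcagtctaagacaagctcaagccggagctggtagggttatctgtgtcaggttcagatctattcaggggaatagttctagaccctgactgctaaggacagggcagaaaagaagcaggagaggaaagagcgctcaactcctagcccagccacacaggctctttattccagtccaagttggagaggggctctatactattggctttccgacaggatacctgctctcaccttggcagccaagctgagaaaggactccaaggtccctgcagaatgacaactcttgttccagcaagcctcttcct
Gabrr1, chr4:33132306-33132605, plus strand: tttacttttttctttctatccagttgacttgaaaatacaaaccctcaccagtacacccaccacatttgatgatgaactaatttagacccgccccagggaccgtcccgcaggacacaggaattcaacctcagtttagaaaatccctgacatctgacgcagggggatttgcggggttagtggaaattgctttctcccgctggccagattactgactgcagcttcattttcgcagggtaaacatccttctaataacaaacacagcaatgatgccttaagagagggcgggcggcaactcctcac
Gabrr2, chr4:33062862-33063161, plus strand: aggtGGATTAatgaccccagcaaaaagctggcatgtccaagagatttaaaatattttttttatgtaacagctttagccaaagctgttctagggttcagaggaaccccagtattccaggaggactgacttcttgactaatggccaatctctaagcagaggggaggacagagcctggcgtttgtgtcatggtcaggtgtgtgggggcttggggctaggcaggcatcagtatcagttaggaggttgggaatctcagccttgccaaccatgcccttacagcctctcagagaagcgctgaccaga
Of these 4 stretches, that of Gabrr2 holds the motif, on the reverse strand and starting 246 bases before the start. Promoters of 33 of the 48 members were matched, 40 stretches in all, and 2 members had the motif on either strand, Gabrr2 and Gabra2. That is 5.0% of the members' stretches, against 7.06% of all 32851 promoter stretches of the same length, and a match is not a binding site. G and C made up 47.3% of the bases for Gabrr1, 49.3% for Gabrr2, 51.3% for Glra4 and 56.0% for Glra3, below the median of 58.8% over the members' stretches.

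Levels are given as RPKM, counts divided by listed gene length and by library size, scaled between libraries with TMM factors (trimmed mean of M values), so that genes and libraries stand on 1 scale. Mean levels over the 8 libraries ran from 41.9 RPKM for Gabrr2 to 0 for Gabra6, with 9 members at 10 RPKM or more and 36 at 1 RPKM or more. Among the 9 were the inhibitory receptor genes Gabrr2, Gabrr1 and Glrb and the glutamate receptor genes Grik5, Gria4 and Gria2. The members' median coefficient of variation was 16.1% over the 8 libraries and 9.86% without sIVs replicate 4. For all 17004 genes tested it was 20.9% and 13.2%, a comparison not matched for level.

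**Figure D1:**
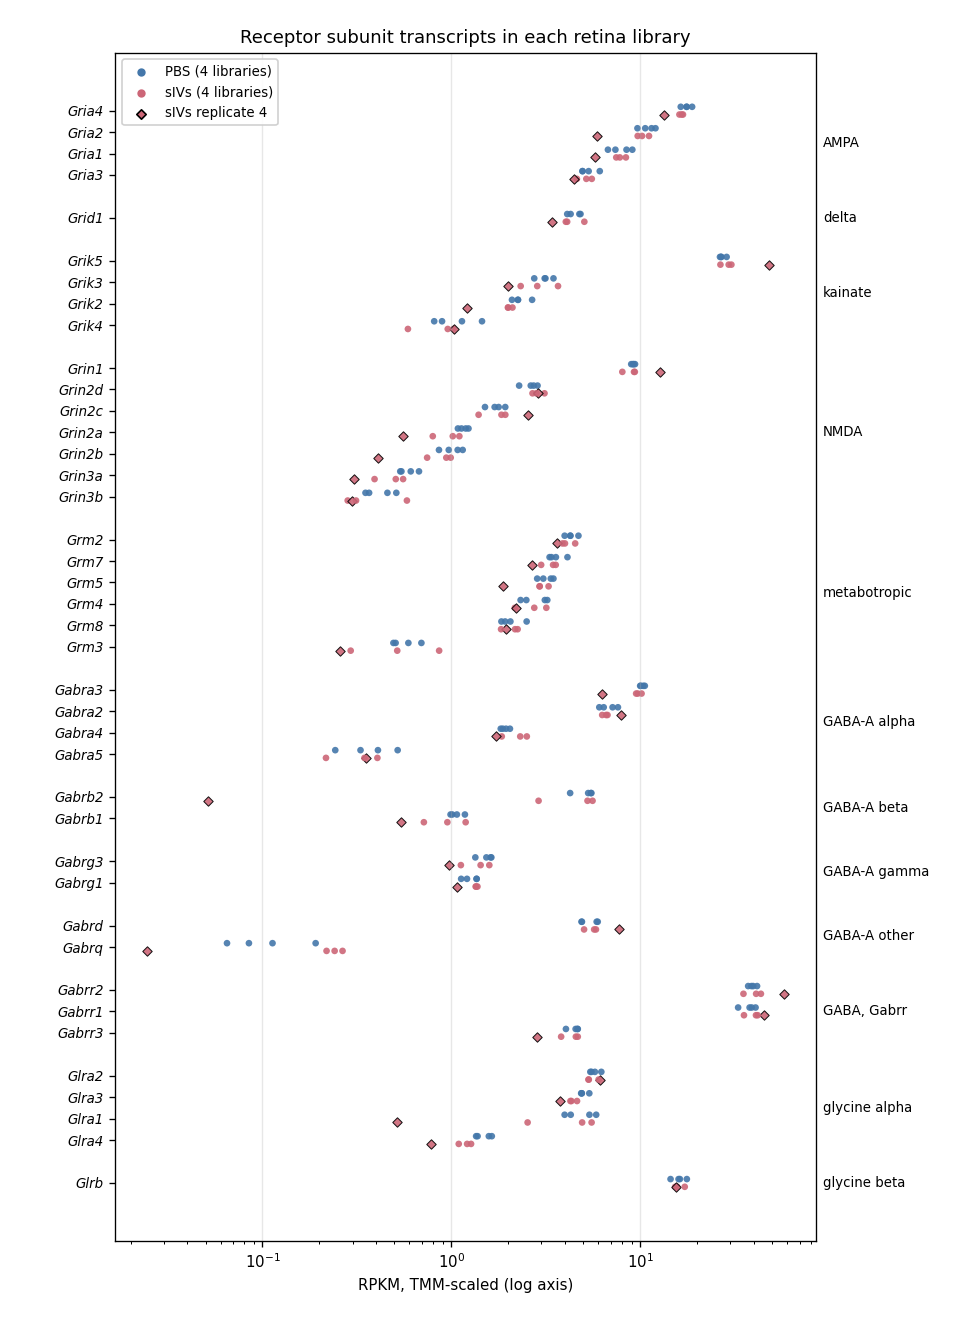
RPKM of 40 tested members on a log axis, ordered by family and by mean level, with 1 point per library (blue PBS, red sIVs, outlined diamond sIVs replicate 4). Within most rows the points of both groups mix, and the diamond lies lowest in 25 rows and highest in 7.

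No receptor gene passed the test between sIVs and PBS retinas. In edgeR's quasi-likelihood test 0 of 45 members had an adjusted p under 0.05 (background 0% of 17004 genes), with a lowest adjusted p of 0.81. At an unadjusted p under 0.05 there was 1 of 45 members, Glra3, beside 1.5% of all genes. DESeq2 and limma-voom with sample quality weights also called 0. At an unadjusted p under 0.05 DESeq2 had 1 of 47 members, beside 494 of 31741 genes. With limma-voom it was 3 of 45 members, beside 455 of 17004 genes. The members' log2 fold changes (sIVs over PBS) were small, with a median of -0.16 and a median standard error of 0.16.

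The signs were not evenly divided. In the sIVs group 33 of 45 members (73.3%) had a log2 fold change below 0, beside 48.7% of all genes tested, whose median was 0.0093. Without sIVs replicate 4 it was 34 of 45 (75.6%, beside 48.9% of all genes), while the members' median moved to -0.061 (0.0032 for all genes). Without sIVs replicate 3 the median was -0.24, and leaving out each other library in turn gave -0.10 to -0.17. With edgeR and TMM factors all 4 AMPA and all 4 glycine alpha genes were on the negative side, as were Grm2, Grm3, Grm4, Grm5, Grm7 and Grm8. On the positive side were both tested members of the delta, epsilon, pi and theta set of GABA-A subunits and 2 of 3 Gabrr genes. The 7 NMDA genes were divided, with 3 above 0 and 4 below. None of these values passed the test, and the counts are a description.

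**Figure D2:**
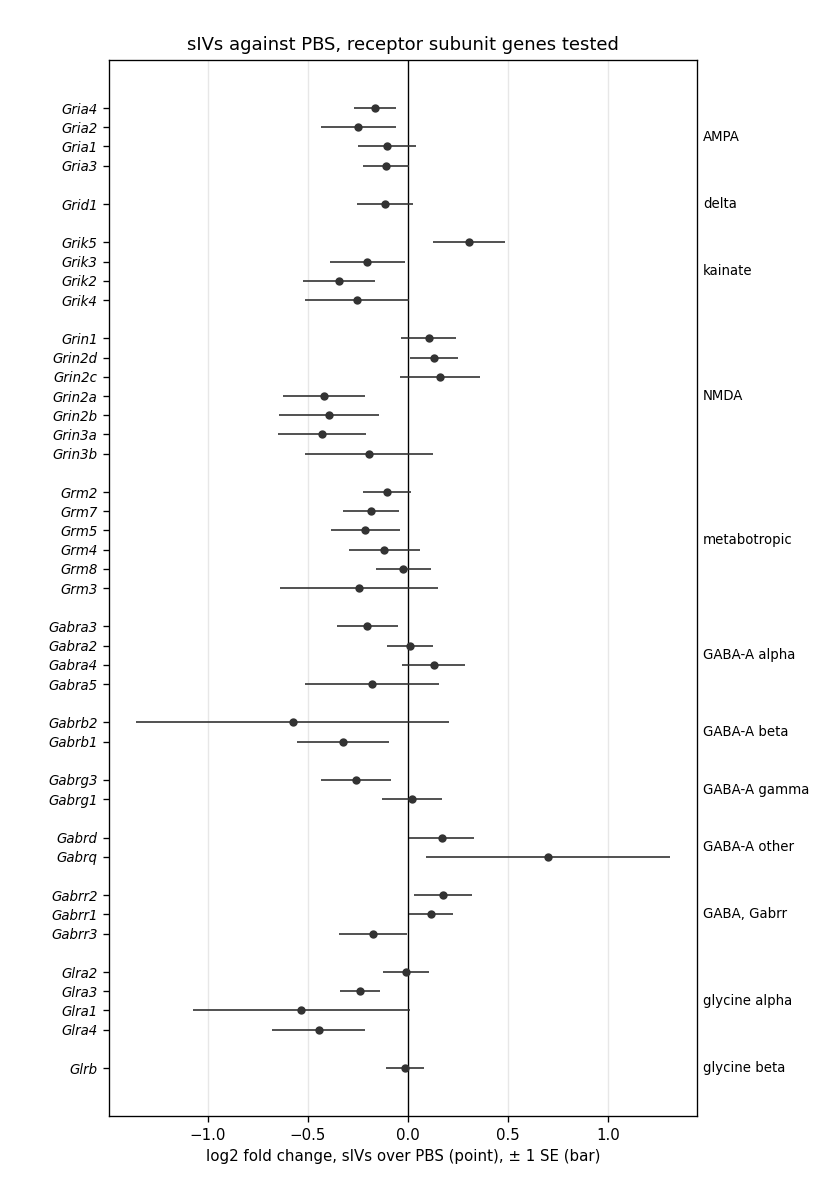
Log2 fold change of sIVs over PBS from edgeR for 40 tested members by family (point), with 1 standard error (bar). Of the 40 points 29 lie left of 0, and the widest bars belong to Gabrb2, Gabrq and Glra1.

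AMPA receptors carry fast excitation in ganglion, amacrine, horizontal and OFF bipolar cells. Gria4 was the highest of the 4 genes, at 16.4, 18.8, 17.6 and 17.65 RPKM in PBS replicates 1, 3, 4 and 5 and at 16.9, 16.6, 13.4 and 16.1 RPKM in sIVs replicates 1, 3, 4 and 5. The groups overlapped, and sIVs replicate 4 was lowest (log2 fold change -0.16 ± 0.10 SE, -0.093 without that library). Gria2, whose subunit makes AMPA channels impermeable to calcium after RNA editing, had a mean of 10.1 RPKM, Gria1 one of 7.64 RPKM and Gria3 one of 5.14 RPKM. The order Gria4, Gria2, Gria1, Gria3 held in all 8 libraries, although the ranges of Gria2 and Gria1 and those of Gria1 and Gria3 over the libraries overlapped. The 4 genes summed to 41.8 ± 2.50 RPKM in PBS and 37.3 ± 5.31 RPKM in sIVs retinas (SD, n = 4 each; two-sided exact permutation p = 0.114, adjusted over the 8 family sums 0.343). The log2 difference of this sum was -0.18 with all libraries and -0.067 without sIVs replicate 4, which had 29.5 RPKM.

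Grid1 encodes a relative of ionotropic glutamate receptors that organises synapses. It stood at 4.83, 4.77, 4.28 and 4.11 RPKM in the PBS replicates and at 4.04, 5.06, 3.42 and 4.11 RPKM in the sIVs replicates, with overlapping groups (log2 fold change -0.11 ± 0.14 SE, -0.030 without sIVs replicate 4 and 0.010 with sample quality weights).

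Among the 4 kainate receptor genes taken by the rule, Grik5 dominated. It encodes an auxiliary subunit that forms channels only together with other kainate receptor subunits. It stood at 26.9, 26.9, 28.7 and 26.5 RPKM in the PBS replicates and at 26.6, 29.4, 48.2 and 30.4 RPKM in the sIVs replicates. Only sIVs replicate 4 stood well above the rest (log2 fold change 0.31 ± 0.18 SE, 0.082 without it). Grik2 encodes a subunit that can form channels on its own, and stood at 2.25, 2.68, 2.25 and 2.09 RPKM in PBS and 2.00, 2.11, 1.22 and 1.99 RPKM in sIVs libraries. Its groups overlapped through sIVs replicate 3 (log2 fold change -0.34 ± 0.18 SE, -0.19 without sIVs replicate 4). Grik3 and Grik4 ranged from 2.01 to 3.67 and from 0.589 to 1.45 RPKM. Grik5 made up 80.7% ± 1.45 of the summed RPKM of the 4 genes in PBS and 85.3% ± 4.66 in sIVs retinas (SD, n = 4 each; exact permutation p = 0.0571, adjusted over the 9 shares 0.257). Without sIVs replicate 4 the difference fell from 4.66 to 2.48 percentage points.

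NMDA receptors need the subunit of Grin1 and, beside it, subunits of the Grin2 or Grin3 genes that set their kinetics, magnesium block and calcium entry. Grin1 stood at 9.23, 8.97, 9.39 and 9.15 RPKM in the PBS replicates and at 8.04, 9.28, 12.8 and 9.37 RPKM in the sIVs replicates. The 4 PBS values spanned less than 1 RPKM, and sIVs replicate 4 was highest (log2 fold change 0.10 ± 0.14 SE, -0.046 without it). Grin2a stood at 1.08, 1.23, 1.13 and 1.19 RPKM in PBS and at 1.10, 1.02, 0.551 and 0.797 RPKM in sIVs libraries. The groups overlapped only through sIVs replicate 1 (log2 fold change -0.42 ± 0.20 SE, edgeR adjusted p = 0.81, -0.25 without sIVs replicate 4). Grin3a, whose subunit lowers calcium entry, stood at 0.610, 0.674, 0.536 and 0.544 RPKM in PBS and at 0.508, 0.555, 0.304 and 0.392 RPKM in sIVs libraries. Here sIVs replicate 3 lay among the PBS values (log2 fold change -0.43 ± 0.22 SE, -0.29 without sIVs replicate 4). Grin2b ranged from 0.411 to 1.15 RPKM and Grin3b from 0.283 to 0.582 RPKM. Grin3b shares 1059 exon bases with Tmem259 on the opposite strand (GENCODE M21), a gene with up to 4630 counts, so its level is uncertain where counting did not use strand. Grin1 shares 1307 with Grin1os, which had at most 65 counts. Grin2d, at 250 to 302 counts, shares 643 with Gm45441 on the opposite strand, which had up to 59 counts.

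Within the pool of Grin2a to Grin2d, only the share of Grin2d, the subunit of highest mean, was tested. Grin2d made up 42.6%, 35.6%, 42.9% and 39.9% of the summed RPKM in PBS replicates 1, 3, 4 and 5 and 43.5%, 44.5%, 44.9% and 45.4% in sIVs replicates 1, 3, 4 and 5. Each sIVs value lay above each PBS value, by a mean of 4.34 percentage points (exact permutation p = 0.0286, the smallest that 4 against 4 libraries can give). Adjusted over the 9 shares tested it was 0.257, so it did not pass, and the difference was 4.23 points without sIVs replicate 4 and 2.80 points without PBS replicate 3. Grin2d itself was 2.63 ± 0.249 RPKM in PBS and 2.87 ± 0.178 RPKM in sIVs retinas. The shares of Grin2a and Grin2b were 17.8% ± 1.34 and 15.5% ± 1.19 in PBS and 13.5% ± 3.82 and 12.0% ± 4.05 in sIVs retinas (SD, n = 4 each). The share of Grin2c was 26.5% ± 2.47 and 30.0% ± 7.33, with 40.0% in sIVs replicate 4. The order of the pool depends on the listed lengths, 24842 bases for Grin2b and 17933 for Grin2a against 6658 for Grin2d. In counts Grin2b exceeded Grin2d in each library but sIVs replicates 4 and 5. In shares of counts the Grin2d difference was 6.26 points (exact permutation p = 0.0571).

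**Figure D3:**
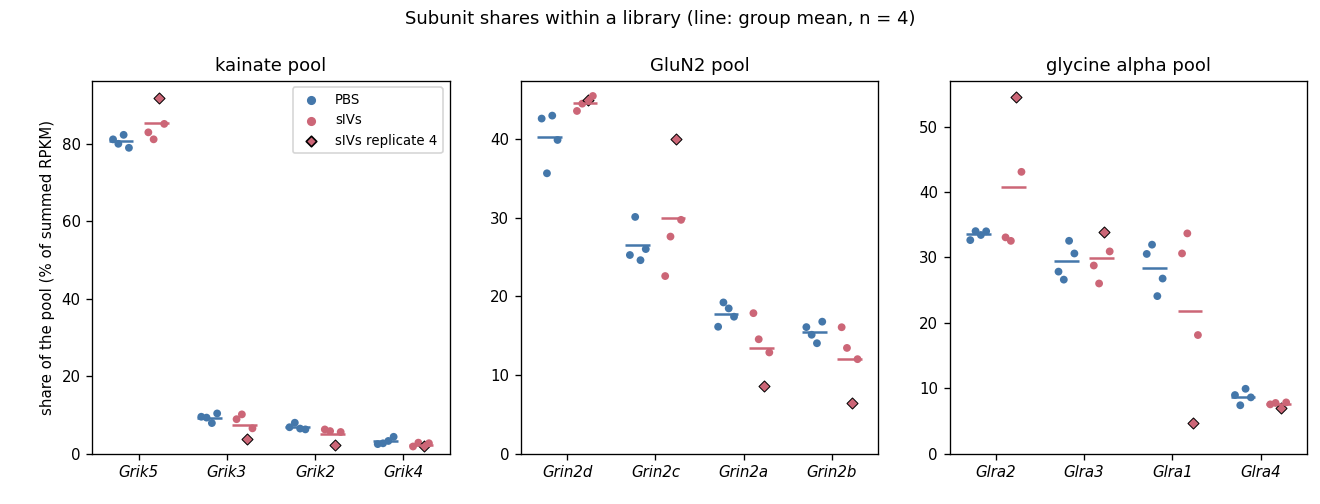
Share of each subunit in the summed RPKM of its pool, in percent, for each library (blue PBS, red sIVs, outlined diamond sIVs replicate 4, line the group mean, n = 4). Grin2d lies higher in all 4 sIVs libraries than in any PBS library. For Glra2 and Glra1 in the glycine alpha pool sIVs replicates 4 and 5 lie apart from the rest.

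Metabotropic glutamate receptors tune release and excitability. Grm5 belongs to group I, coupled to phospholipase C, and Grm2 and Grm3 (group II) and Grm4, Grm7 and Grm8 (group III) encode receptors that inhibit adenylyl cyclase. Among the metabotropic genes taken by the rule, Grm2 had the highest mean by a small margin. It stood at 4.71, 4.27, 3.98 and 4.27 RPKM in the PBS replicates and 4.00, 4.53, 3.61 and 3.88 RPKM in the sIVs replicates. Its groups overlapped (log2 fold change -0.11 ± 0.12 SE, -0.059 without sIVs replicate 4). Means of Grm7, Grm5, Grm4 and Grm8 were 3.39, 2.97, 2.68 and 2.07 RPKM, each overlapping in range with the next. Grm3 stood apart below them at 0.258 to 0.862 RPKM. The 7 metabotropic genes taken by the rule summed to 20.4 ± 0.891 RPKM in PBS and 18.3 ± 2.35 RPKM in sIVs retinas (SD, n = 4 each). The sum was 15.3 RPKM in sIVs replicate 4 (group difference, exact permutation p = 0.143, adjusted 0.343). The log2 difference of the sum was -0.16, and -0.076 without that library.

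GABA-A receptors are usually built of alpha, beta and gamma subunits. Among the alpha genes, Gabra3 and Gabra2 had means of 9.59 and 6.84 RPKM and Gabra4, whose subunit pairs with delta in receptors outside synapses, one of 2.01 RPKM. Gabra5 lay at 0.217 to 0.520 RPKM. Gabrd, the delta subunit gene, stood at 4.92, 4.89, 5.96 and 5.88 RPKM in the PBS replicates and 5.83, 5.71, 7.74 and 5.05 RPKM in the sIVs replicates. Its groups overlapped, and sIVs replicate 4 was highest (log2 fold change 0.17 ± 0.16 SE, 0.030 without it). Gabrg3 and Gabrg1 had means of 1.40 and 1.27 RPKM and Gabrb1 one of 0.956 RPKM. At the low end, Gabrq did not exceed 0.265 RPKM and Gabre 0.152 RPKM, Gabrp had 2 counts in PBS replicate 1 and 0 elsewhere, and Gabra6, the cerebellar granule cell subunit, had 0 counts in all 8 libraries. A count of 0 allows 3 counts, or up to 0.0911 RPKM of Gabra6. Gabre, Gabrp and Gabra6 were the 3 members under the filter.

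Gabrr1 and Gabrr2 were the most abundant of the receptor genes per length. Gabrr2 stood at 38.8, 41.6, 39.7 and 37.3 RPKM in the PBS replicates and at 35.2, 43.6, 57.9 and 41.1 RPKM in the sIVs replicates, with sIVs replicate 4 highest and replicate 1 of the same group lowest (log2 fold change 0.18 ± 0.15 SE, 0.023 without sIVs replicate 4). Gabrr1 had a mean of 39.3 RPKM, and the pair did not separate: Gabrr2 was the higher in 5 of 8 libraries. Gabrr3 lay lower in each library, at 2.84 to 4.67 RPKM. The 3 Gabrr genes summed to 81.5 ± 4.91 RPKM in PBS and 89.3 ± 12.6 RPKM in sIVs retinas (SD, n = 4 each; exact permutation p = 0.314, adjusted 0.359), nearly as much as the 16 GABA-A genes of the other classes (96.04 ± 4.83 and 90.8 ± 6.71 RPKM). Leaving out sIVs replicate 4, where the Gabrr genes summed to 106 RPKM, moved the log2 difference of their sum from 0.12 to 0.038 and that of the 16 GABA-A genes from -0.083 to -0.033.

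Glycine receptors join alpha subunits, which bind glycine, with the beta subunit of Glrb, which ties them to the scaffold protein gephyrin. Glrb stood at 14.5, 16.2, 17.7 and 15.97 RPKM in the PBS replicates and 15.3, 15.7, 15.6 and 17.2 RPKM in the sIVs replicates (log2 fold change -0.013 ± 0.095 SE). Among the alpha genes Glra2 had the highest mean and the smallest spread, at 5.76, 6.23, 5.52 and 5.45 RPKM in PBS and 5.32, 5.34, 6.09 and 6.02 RPKM in sIVs libraries (-0.011 ± 0.12 SE). The groups of both genes overlapped.

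Glra3 and Glra4 were the only members of the 45 tested whose groups did not overlap, both lower in sIVs retinas. That is 2 members, beside 0.929% of all genes tested that were lower without overlap, and 0 members were higher without overlap (1.08% of all genes). Glra3 stood at 4.91, 4.87, 5.38 and 4.90 RPKM in the PBS replicates and at 4.63, 4.27, 3.78 and 4.32 RPKM in the sIVs replicates. Every sIVs value was lower, but the difference did not pass over all genes (log2 fold change -0.24 ± 0.10 SE, edgeR adjusted p = 0.81), and it was -0.19 without sIVs replicate 4. Glra4 stood at 1.58, 1.35, 1.64 and 1.38 RPKM in PBS and at 1.21, 1.27, 0.782 and 1.09 RPKM in sIVs libraries. With 24 to 49 counts per library it rests on few reads (log2 fold change -0.45 ± 0.23 SE, adjusted p = 0.81, -0.32 without sIVs replicate 4). Leaving out a library can only keep or raise the number of members without overlap. On the lower side leaving out PBS replicate 1 gave 5 such members, leaving out sIVs replicate 1 gave 4, and leaving out sIVs replicate 3 gave 7, where 2.23%, 2.93% and 3.59% of all genes were lower without overlap. On the higher side there were 2, Gabrr1 and Grik5, without sIVs replicate 1 (3.47% of all genes) and 1, Gabrq, without sIVs replicate 4 (1.51%), and 0 without each of the others. The 5 glycine receptor genes summed to 33.2 ± 1.34 RPKM in PBS and 30.4 ± 2.46 RPKM in sIVs retinas (SD, n = 4 each; exact permutation p = 0.0571, adjusted 0.343). The log2 difference of this sum was -0.13, and -0.072 without sIVs replicate 4 (exact permutation p = 0.114, adjusted 0.629).

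Glra1 and Gabrb2, singled out after their values were seen, varied most within the sIVs group, relative to their mean, among members above 1 RPKM. Glra1, the main alpha subunit of spinal glycine receptors, stood at 5.39, 5.85, 3.98 and 4.29 RPKM in the PBS replicates and at 4.93, 5.53, 0.515 and 2.53 RPKM in the sIVs replicates. Gabrb2, the second beta subunit gene, stood at 5.48, 5.30, 4.26 and 5.52 RPKM in PBS and at 5.26, 5.59, 0.0515 and 2.90 RPKM in sIVs libraries. In both genes sIVs replicates 1 and 3 lay within or just above the PBS range, replicate 5 below it and replicate 4 far below it. Gabrb2 had 5 counts in sIVs replicate 4 against 268 to 583 in the others, or 1.05% of their mean RPKM, and Glra1 had 19 counts against 89 to 244, or 11.1%. Of all genes tested, 2.07% were under 10% of the mean of the other 7 libraries in sIVs replicate 4. The group differences were -0.58 ± 0.78 for Gabrb2 and -0.53 ± 0.54 for Glra1 (log2 fold change ± SE) and fell to -0.17 for each without sIVs replicate 4. The share of Glra2 in the glycine alpha pool was 32.5% to 34.03% in 6 libraries, 43.1% in sIVs replicate 5 and 54.6% in sIVs replicate 4. High pigment epithelium markers, the length relation and the low values of these genes coincided in sIVs replicate 4. That is 1 library, and their part in the result was not tested.

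Members were mostly low in sIVs replicate 4. There 29 of the 45 (64.4%) stood below all 7 other libraries and 7 (15.6%) above all of them, beside 35.4% and 35.7% of all genes tested. The 7 that stood above were Gabrr2, Gabrr1, Grik5, Grin1, Gabra2, Gabrd and Grin2c. The median deviation of the members from their own 8-library means was -0.31 (log2 CPM) in sIVs replicate 4 and -0.028 to 0.12 in the other 7, while that of all genes was -0.0016 to 0.013 over the 8 libraries. Longer members tended to stand lower there (Spearman correlation with listed length -0.32 over 45 genes, -0.45 over all genes, -0.63 over 14222 protein-coding genes). The median listed length was 6083 bases for the members, 3950 for all genes tested and 4470.5 for protein-coding ones. The shares above are therefore not matched for length. Glra1 and Gabrb2 are listed at 2414 and 6360 bases. The part of length was not tested. Of the neurons that carry these receptors, the 10 amacrine markers summed to 1085 CPM in that library and 1142 to 1326 CPM in the others, and the 10 bipolar markers to 1659 CPM and 1723 to 1992 CPM. Marker sums of rods (48707 CPM there), astrocytes, lens and ciliary body, and blood and vessels lay within the range of the other 7 libraries. The remaining marker sums were highest in that library. The 11 ganglion cell markers reached 1101 CPM there and 850 to 908 CPM in the others, and the 4 horizontal cell markers 147 CPM and 90.2 to 117 CPM. The 7 cone markers reached 1115 CPM there and 679 to 893 CPM in the others, the 8 Mueller glia markers 8735 CPM and 4889 to 7271 CPM, and the 9 microglia markers 317 CPM and 53.1 to 292 CPM. The part of these shifts in the members' levels was not tested.

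**Figure D4:**
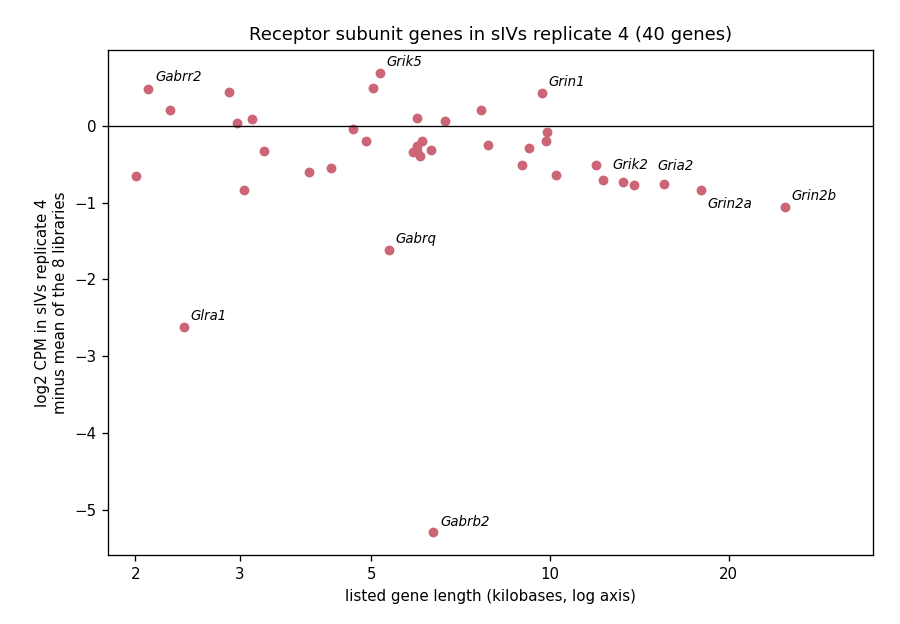
Deviation of each of 40 tested members in sIVs replicate 4 from its mean over the 8 libraries (log2 CPM) against its listed gene length in kilobases on a log axis. Grin2b, the longest, lies at -1.05, Glra1 at -2.62 and Gabrb2 at -5.30, and 11 of the 40 points lie above 0.

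Many of the GABA receptor genes are chromosomal neighbours. With gaps under 1 Mb the 48 members formed 6 groups holding 18 genes (mm10). On chromosome 4 (33062999 to 33163588) Gabrr2 and Gabrr1 lie side by side, at 146% and 117% of the mean of the other 7 libraries in sIVs replicate 4. On chromosome 5 (70751047 to 72149037) Gabra2 was highest and Gabrb1 lowest of 4 genes, and on chromosome X (72255999 to 72842602) Gabra3 had 129 times the level of Gabre. On chromosome 3 (80681450 to 80913660) the glutamate receptor gene Gria2 neighbours Glrb. Glra3 lies on chromosome 8 (55940460 to 56130070), Glra4 on chromosome X (136757674 to 136780141) and Glra1 on chromosome 11 (55514238 to 55608198), each outside these groups.

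Genes that act with the receptors also had 0 calls. Of 47 tested genes for auxiliary subunits, scaffolds and synapse organisers, 0 passed. Their log2 fold changes were above 0 in 14 and below in 33, where 48.7% of all genes tested lay below 0. The median of the 47 was -0.11. Smallest in p were Shisa6 and Neto2, which encode auxiliary subunits of AMPA and of kainate receptors, and Homer2, a scaffold of metabotropic receptors. Shisa6 averaged 21.1 ± 0.599 CPM over the PBS and 15.9 ± 4.99 CPM over the sIVs libraries (SD, n = 4 per group) and reached just 8.97 CPM in replicate 4 of the latter (log2 fold change -0.41 ± 0.23 SE, -0.21 without that library). Neto2 and Homer2 had log2 fold changes of -0.19 ± 0.10 and -0.31 ± 0.17 (SE), and of -0.14 and -0.19 without sIVs replicate 4.

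Of 27 tested genes for transporters, synthesis and breakdown of these transmitters and for GABA-B receptors, 0 passed. Above 0 lay 6 and below it 21, beside the same 48.7% of all genes tested, and the median was -0.12. Both lists leaned to negative values, as the members did. Gad2, which makes GABA, averaged 81.4 ± 7.11 CPM over the PBS and 66.6 ± 11.03 CPM over the sIVs libraries (log2 fold change -0.29 ± 0.14 SE, -0.18 without sIVs replicate 4). Gabbr2, a subunit of the GABA-B receptor, averaged 102 ± 10.4 and 75.4 ± 27.1 CPM (-0.43 ± 0.25 SE, -0.22 without that library), and Shmt2, the mitochondrial enzyme that interconverts serine and glycine, at 89.2 ± 5.85 and 102 ± 17.1 CPM (0.19 ± 0.13 SE, 0.085 without that library; SD, n = 4 each). Each of these 6 genes had an edgeR adjusted p of 0.81.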

How the data were processed

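The authors deposited raw counts for 54532 Ensembl genes with listed position, length and biotype, and FPKM values (fragments scaled by gene length and depth) of the same libraries; units follow the file headers and values. Per the labels' protocols the libraries mark strand. Per the submitters' processing notes the genome was mm10; which aligner and counter were used, and whether counting used strand, is not given in the sources used here. Sample titles gave the groups and replicates. The members, lists and tests were chosen with earlier results of these data known. Counts were filtered with filterByExpr, scaled with TMM and tested with edgeR 4.0.16 (R 4.3.3), group as the only term, Benjamini-Hochberg over 17004 genes; a standard error is the size of the log2 fold change over the root of its F statistic. RPKM used the listed gene length, which can include exons unused in retina. Family sums and shares were compared by two-sided exact permutation over 70 arrangements (scipy 1.17.1), adjusted over 8 sums and 9 shares. Named genes were the highest of each family, those without overlap, the 5 members of smallest p and the 3 of smallest p in each related list; some members are not reported here one by one and are not plotted. Alternatives used DESeq2 1.42.0, limma 3.58.1 on counts and on log2 FPKM, RLE factors, no filter, blocking on replicate, and leaving out each library in turn. The edgeR test was tested on simulated data. No 2 libraries of a group agreed within counting noise.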

Additional observations from a re-analysis of the deposited data

Results flagged for a closer look

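A library was picked out where its gap to the nearest of its group, divided by the range of the group, passed the 95% Dixon limit for 4 samples. Of 136 groups examined 9 did so, and chance gives about 1 in 20 groups. Lowest in sIVs replicate 4 were Gabra3 at 6.24 RPKM (others 9.52 to 10.2), Grik2 at 1.22 RPKM (1.99 to 2.11), Gabrg1 at 1.07 RPKM (1.35 to 1.38) and the summed glycine receptor genes at 26.7 RPKM (31.2 to 32.1). Grik4 was lowest in sIVs replicate 1 at 0.589 RPKM (0.957 to 1.03), and Grin3b was highest in sIVs replicate 3 at 0.582 RPKM (0.283 to 0.313). In the PBS group Glra3 was highest in replicate 4 at 5.38 RPKM (4.87 to 4.91), Gabrb2 lowest in replicate 4 at 4.26 RPKM (5.30 to 5.52), and the share of Grm2 in the metabotropic pool highest in replicate 1 at 23.6% (19.9% to 20.6%).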

How the results depend on the processing

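No count of genes past the threshold left 0 under any alternative, and the lowest adjusted p of a named receptor gene in any of them was 0.571. With the replicate block, receptor genes past the threshold were 0 and all genes past the threshold 0, with 588 genes at an unadjusted p under 0.05 against 255 without the block. Same-numbered libraries correlated at 0.60, 0.02, 0.23 and 0.51 in their deviations, and differently numbered ones at -0.51 to 0.26. PBS replicates 1, 4 and 5 correlated best with the sIVs library of the same number, PBS replicate 3 with sIVs replicate 5. The labels do not state pairs, so the main test used group alone, with the block as an alternative. For sums and shares, sign flips of 4 pairs cannot give a p below 0.125, a limit that does not apply to the edgeR block. Directions changed for Grid1, Grin1, Glra2, Glrb, the NMDA sum and the shares of Gria4 and Gabrr2, and for no other result checked. Of these the main analysis had -0.11 for Grid1, 0.10 for Grin1 and 1.09 points for the Gabrr2 share. With sample quality weights Grid1 and Grin1 had log2 fold changes of 0.010 and -0.025. Without division by length the NMDA sum differed by -0.037 on the log2 scale, against 0.026 with it. Leaving out 1 library in turn gave ranges of -0.045 to 0.031 for Glra2, -0.060 to 0.033 for Glrb, -0.046 to 0.19 for Grin1 and -0.045 to 0.086 for the NMDA sum. For shares it gave -0.691 to 1.03 points for Gria4 and -0.662 to 1.96 points for Gabrr2. The number of members lower without overlap ran from 2 to 7 with 1 library left out, which can only keep or raise it, a check chosen after seeing the data, and was 2 with RLE factors and with FPKM. The causes were not tested. Counting error limits Glra4, Grm3, Grin3b, Gabra5 and Gabrq, all under 50 counts per library.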
